A study of Mus musculus with 6 samples.

Results

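Catecholamines and cAMP control lipolysis in fat cells through a chain of receptors, adenylyl cyclase, protein kinase A and phosphodiesterase, and the genes of that chain were compared in subcutaneous adipose tissue with and without a mitoNEET transgene. The genes were chosen by symbol: Adrb1, Adrb3, Adra2a, Adora1, Adcy3, Prkaca, Prkar2b and Pde3b, 8 in all. The platform annotation used here pairs probes with 4 of these 8, Adcy3, Prkaca, Prkar2b and Pde3b, through 7 of the 45281 probes. Adrb1, Adrb3, Adra2a and Adora1 were not analysed here. The results thus concern the cyclase, kinase subunit and phosphodiesterase genes and not the receptors of the 8. Where a gene had more than 1 probe, the probe of highest mean over the 6 arrays stands for it, and the other probe is given beside it.

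The tissue came from male FVB mice aged 12 weeks and was frozen at once after isoflurane anaesthesia in the light phase. Of 6 Illumina bead arrays, 3 carried RNA from wild type tissue and 3 carried RNA from transgenic tissue. The transgene encodes mitoNEET, the product of Cisd1, which sits in the outer membrane of mitochondria and binds an iron-sulfur cluster. The labels do not state the promoter of the transgene, although the sample codes of both genotypes begin with aP2, another name of the fat cell gene Fabp4. Whether every array stands for its own animal is not stated either, and the p-values therefore reflect only the spread between these samples, which may be technical.

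Noradrenaline released by sympathetic nerves acts on beta-adrenergic receptors of adipocytes, which activate adenylyl cyclase through a stimulatory G protein. The cAMP made by the cyclase binds the regulatory subunits of protein kinase A and frees the catalytic subunits, which phosphorylate perilipin and hormone-sensitive lipase and so start lipolysis. Alpha-2 adrenergic and adenosine A1 receptors lower cAMP through inhibitory G proteins, and insulin lowers it by activating phosphodiesterase 3B. In mouse white fat the main regulatory subunit is RII-beta, the product of Prkar2b.

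The promoters of Adcy3, Prkaca and Prkar2b are shown because these are the measured genes with signal clearly above background, and each sequence covers the 250 bases before the most upstream listed start. Of the 4 measured genes, 3 matched the RefSeq promoter table of GRCm38.p6. The sequences read 5′ to 3′ on the gene's strand. Capitals mark TGACG, the core of the cAMP response element, CCAAT, and the E-box CACGTG, each searched on both strands.
Adcy3, chr12:4133147-4133396, plus strand: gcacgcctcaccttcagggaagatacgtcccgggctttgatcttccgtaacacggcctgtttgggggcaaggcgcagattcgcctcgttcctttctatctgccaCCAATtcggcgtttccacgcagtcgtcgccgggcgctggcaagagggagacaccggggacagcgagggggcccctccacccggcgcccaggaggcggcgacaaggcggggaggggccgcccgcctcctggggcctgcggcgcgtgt
Prkaca, chr8:83972728-83972977, plus strand: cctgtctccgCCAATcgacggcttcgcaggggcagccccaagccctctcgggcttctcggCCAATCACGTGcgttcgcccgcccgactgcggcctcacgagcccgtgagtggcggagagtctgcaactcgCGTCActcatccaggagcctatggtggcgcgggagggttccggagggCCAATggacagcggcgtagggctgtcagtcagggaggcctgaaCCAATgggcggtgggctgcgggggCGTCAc
Prkar2b, chr12:32061278-32061527, minus strand: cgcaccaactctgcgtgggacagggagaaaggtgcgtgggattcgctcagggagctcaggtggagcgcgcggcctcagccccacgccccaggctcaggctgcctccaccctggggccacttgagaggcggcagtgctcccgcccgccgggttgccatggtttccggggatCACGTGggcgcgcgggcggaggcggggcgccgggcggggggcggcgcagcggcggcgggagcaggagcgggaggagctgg

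The Prkaca window held 4 CCAAT matches, at 240, 190, 73 and 30 bases before the start, and the Adcy3 window held 1, at 146 bases. The Prkar2b window held none. The core TGACG matched the Prkaca window 2 times, at 120 and 6 bases before the start and both on the opposite strand, and matched neither of the other windows. The E-box stood in the Prkaca window directly after the second CCAAT and in the Prkar2b window at 80 bases before the start. GC boxes (GGGCGG), which are not capitalised, numbered 4 in Prkar2b, 2 in Prkaca and 1 in Adcy3. Among 32851 promoter windows of the same length, 33.8% held CCAAT, 17.8% held TGACG, 32.7% held GGGCGG and 6.02% held CACGTG. The full palindrome TGACGTCA, which contains TGACG, was in 1.55% of windows and in none of the 3 shown. These matches are letters in a window and describe no binding.

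Values are intensities on the linear scale of the deposited table, in which the background level lay at 47.8, and a probe was kept when it exceeded 55.6 on at least 3 of the 6 arrays. Differences are log2 transgenic minus wild type from limma's moderated test, with its standard error, and Benjamini-Hochberg adjustment ran over all 14962 features. A gene was called at an adjusted p under 0.05. All 6 arrays had the same distribution, with medians of 54.8, so changes are relative to the other genes. Of all features, 13.4% were called, 5.11% higher and 8.26% lower in transgenic tissue, and the groups did not overlap in 35.9%. The Cisd1 probe, a weak check of the labels, read 915 ± 132 (SD, n = 3) in wild type and 1086 ± 23.4 (SD, n = 3) in transgenic tissue, with an adjusted p of 0.163 in limma.

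On the probe that stands for each gene, none of the 4 measured genes was called. None had an unadjusted p under 0.05 in limma, beside 13.4% called and 31.5% under 0.05 of all features. Their median log2 difference was -0.02, against 0.03 over all features. Prkar2b was the 1 gene of the 4 whose groups did not overlap, where 35.9% of all features have such groups. With all probes tested, the dimmer probes of Prkaca and Prkar2b had unadjusted p = 0.0382 and 0.0162 in limma, and neither passed after adjustment.

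Adcy3 encodes an adenylyl cyclase, the enzyme that makes cAMP. Its probe read 279.8, 209 and 237 on wild type arrays 1 to 3 and 251, 236 and 242 on transgenic arrays 1 to 3. The transgenic values lay inside the wild type range. The log2 difference was 0.02 (SE 0.11, 95% interval -0.24 to 0.28; limma adjusted p = 0.94). Its sign turned negative without wild type array 2, the lowest, at -0.09. The other Adcy3 probe stayed below the background threshold on all 6 arrays, with means of 49.1 and 49.0.

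Prkaca encodes the alpha catalytic subunit of protein kinase A. It read 2859.9, 2576.5 and 2496.5 on the wild type arrays and 2718, 2471 and 2206 on the transgenic arrays. The lowest value was on transgenic array 3, and the groups overlapped. The log2 difference was -0.10 (SE 0.10, 95% interval -0.34 to 0.13; limma adjusted p = 0.542). The dimmer Prkaca probe read 1709 ± 182 (SD, n = 3) and 1400.4 ± 182 (SD, n = 3), a log2 difference of -0.29 (SE 0.12; limma adjusted p = 0.138 over all kept probes). Both probes thus had lower means in transgenic tissue, and neither passed.

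Prkar2b encodes the RII-beta regulatory subunit, which holds the catalytic subunits inactive until cAMP binds. It read 10949, 9859 and 10232 on the wild type arrays and 11346, 11565.5 and 12324 on the transgenic arrays. Every transgenic value lay above every wild type value, with transgenic array 1 only just above wild type array 1. The log2 difference was 0.18 (SE 0.08, 95% interval -0.01 to 0.38; limma adjusted p = 0.178), a 1.14-fold difference. The second Prkar2b probe, far dimmer, read 125 ± 17.4 (SD, n = 3) and 158 ± 12.9 (SD, n = 3). Its groups did not overlap either, and its log2 difference of 0.35 (SE 0.12) did not pass (limma adjusted p = 0.0835 over all kept probes). A two-sided exact permutation test on the brighter probe gave p = 0.1, the smallest that 3 against 3 arrays allow.

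Pde3b encodes the phosphodiesterase through which insulin lowers cAMP in fat cells. Its only probe read 54.8, 58.8 and 58.3 on the wild type arrays and 56.0, 54.9 and 53.7 on the transgenic arrays. These values straddle the background threshold, which was exceeded on 3 arrays. The log2 difference of -0.06 (SE 0.08; limma adjusted p = 0.642) therefore says little about the gene, since readings at this level give only a bound.

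**Figure D1:**
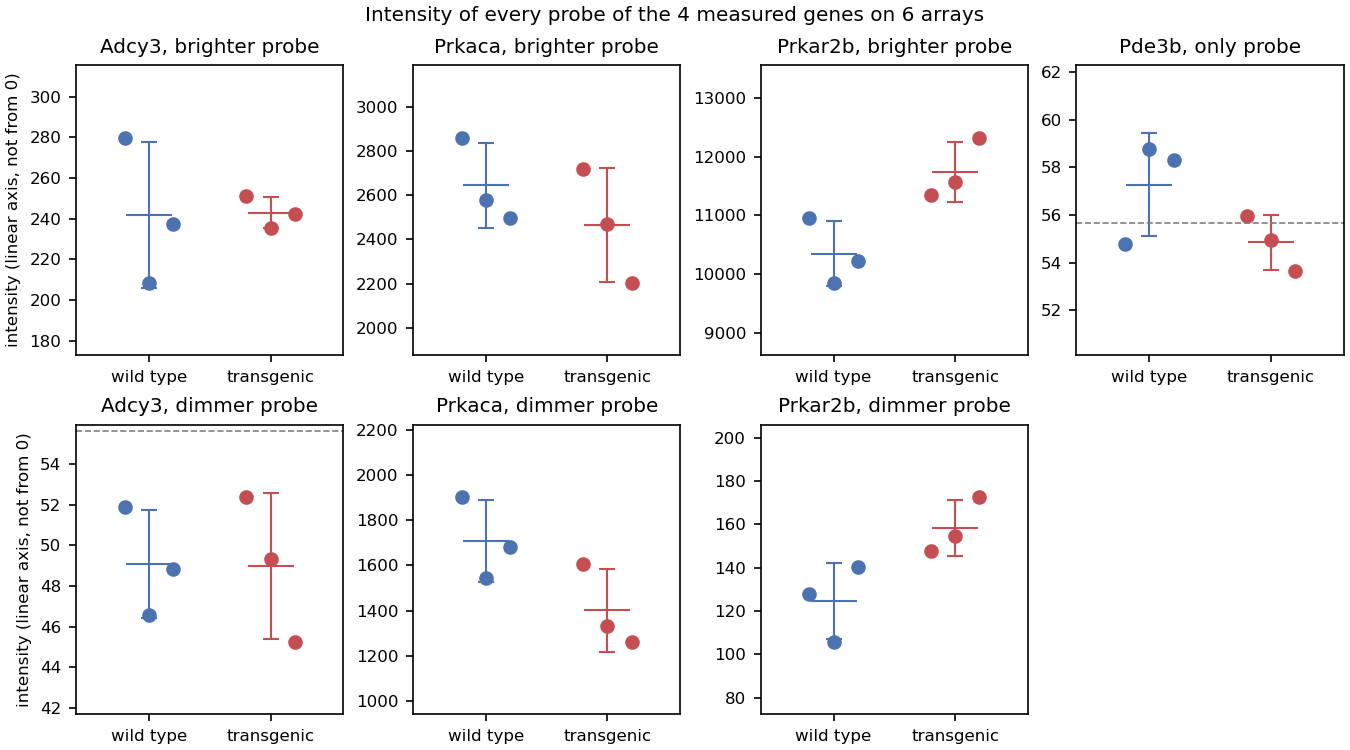
Intensity (linear axes that do not start at 0) of each probe of Adcy3, Prkaca, Prkar2b and Pde3b on the 3 wild type arrays (blue) and the 3 transgenic arrays (red), with points for arrays 1 to 3 from left to right in each group, bars for the mean and SD, and a dashed line at the background threshold of 55.6. The groups separate in both Prkar2b probes, and overlap in both Adcy3 probes, both Prkaca probes and Pde3b.

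Because the kinase is a complex, the subunit genes were also set against each other as log2 ratios of their probes within each array, which compares how the ratio differs between groups and not the amounts of the subunits. The ratio of Prkar2b to Prkaca was 1.97 ± 0.06 (SD, n = 3) in wild type and 2.26 ± 0.21 (SD, n = 3) in transgenic tissue, without overlap. The ratio of Prkar2b to Prkacb, the gene of the beta catalytic subunit, was 1.34 ± 0.24 and 1.93 ± 0.10, also without overlap. The ratio of Prkar2b to Prkar1a, the gene of the RI-alpha regulatory subunit, was 1.75 ± 0.15 and 1.94 ± 0.19, and that of Prkacb to Prkaca was 0.63 ± 0.23 and 0.32 ± 0.26, both with overlap. In two-sided exact permutation tests the first 2 ratios had p = 0.1 and the others p = 0.3, which became 0.2 and 0.3 after Benjamini-Hochberg adjustment over these 4 ratios. Since 3 against 3 arrays cannot give a p below 0.1, these tests could not have passed and the ratios stand as a description.

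The wider pathway was described through 9 other lists of 111 genes, chosen with earlier results of these data known, of which 84 were tested. In transgenic tissue 6 of the 84 rose and 11 fell, or 20.2% called beside 13.4% of all features. Their groups did not overlap in 31 of 84 (36.9%, beside 35.9%), and 26 had an unadjusted p under 0.05 (31.0%, beside 31.5%). With each array centred on its median, the called genes split into 8 higher and 9 lower. The counts changed when arrays were left out: 0 higher and 2 lower without wild type array 2, and the same without transgenic array 1. They were 0 and 0 without transgenic array 2, and 0 and 6 without transgenic array 3. Over all features the called number fell too, from 2001 to 316, 513, 0 and 1211 in the same order of exclusions. Without both wild type array 2 and transgenic array 1 the pathway counts were 0 and 2, beside 317 called of all features. Subtracting the background level also gave 0 and 2, beside 344 called of all features. The counts of single lists below stand beside 5.11% higher and 8.26% lower of all features. In lists this short, 1 call says little about the list.

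At the cell surface, the 1 other adrenergic or adenosine receptor gene above background was Adra2c, an alpha-2 receptor gene, at 56.7 ± 1.45 (SD, n = 3) and 57.9 ± 1.18 (SD, n = 3), close to the threshold (log2 difference 0.03; limma adjusted p = 0.836). Adra1b and Adora3 stayed below it. Of 14 tested genes of other G protein coupled and natriuretic peptide receptors of fat cells, 1 rose and none fell, with a median log2 difference of 0.21. The gene that rose was Sucnr1, the succinate receptor gene, which couples to an inhibitory G protein. It read 460, 293 and 299 on the wild type arrays and 589, 518 and 512 on the transgenic arrays (log2 0.65, SE 0.17, limma adjusted p = 0.041). Wild type array 1 stood well above the other wild type arrays but below every transgenic array. Hcar1, the gene of the antilipolytic lactate receptor, singled out after its value was seen, read 2030.2 ± 368 (SD, n = 3) and 2812 ± 201 (SD, n = 3). Its groups did not overlap, but the log2 difference of 0.48 (SE 0.14) missed the threshold (limma adjusted p = 0.0532).

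Among 14 tested G protein and receptor regulator genes 4 fell and none rose, although the list's median log2 difference was 0.17. Arrb2 encodes beta-arrestin 2, which binds phosphorylated receptors and ends their coupling. It read 523, 631 and 594 on the wild type arrays and 313, 340 and 364 on the transgenic arrays, 1.72-fold lower (log2 -0.78, SE 0.10, limma adjusted p = 0.0145). The groups lay far apart relative to their spread. Grk6, a receptor kinase gene, fell 1.53-fold, Gnai2, an inhibitory G protein alpha subunit gene, fell 1.37-fold, and Gng2, a G protein gamma subunit gene, fell 1.32-fold. Second probes of Grk6 and Gnai2 also passed when all probes were tested, and the second Gng2 probe did not (log2 -0.08; limma adjusted p = 0.592). Gnas, the gene of the stimulatory alpha subunit, also picked out with its value known, had a log2 difference of 0.18 (SE 0.11; limma adjusted p = 0.32).

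Among 6 other adenylyl cyclase genes 1 fell. Adcy7, a cyclase gene well known from blood cells, read 139.8, 195 and 183 on the wild type arrays and 96.0, 116 and 117 on the transgenic arrays (log2 -0.65, SE 0.14, limma adjusted p = 0.0245). Its second probe changed by -0.96 and passed too (limma adjusted p = 0.0167 over all kept probes). The difference between Adcy7 and Adcy3 in their response was not tested.

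Among 6 other protein kinase A subunit and inhibitor genes 1 fell. Prkacb, the beta catalytic subunit gene, read 3738, 4651 and 3928 on the wild type arrays and 2783, 3239 and 3215 on the transgenic arrays. Wild type array 2 was the highest and transgenic array 1 the lowest. The fall was 1.33-fold (log2 -0.41, SE 0.11, limma adjusted p = 0.0444) and was not called with the arrays centred on their medians. Prkar1a, picked out with its value known, had a log2 difference of -0.01 (SE 0.10; limma adjusted p = 0.942).

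Of 11 other phosphodiesterase genes tested, 3 fell and 1 rose, with a median log2 difference of -0.09. Pde4b encodes a cAMP-specific phosphodiesterase found in leukocytes among other cells. It read 519, 834 and 657 on the wild type arrays and 255, 366 and 386 on the transgenic arrays, 1.99-fold lower (log2 -0.99, SE 0.20, limma adjusted p = 0.0212). Wild type array 2 and transgenic array 1 were the extremes, and without both the log2 difference was -0.64 (limma adjusted p = 0.0749). The other Pde4b probes read close to background and were not kept. Their means were 52.2, 47.6 and 42.4 in wild type and 53.7, 50.5 and 41.0 in transgenic tissue. Pde7a, also cAMP-specific, fell 1.34-fold (limma adjusted p = 0.0462). It was not called with the arrays centred on their medians or with array weights, and its second probe missed the threshold (log2 -0.34; limma adjusted p = 0.0586 over all kept probes). Pde1b, whose product is activated by calcium and calmodulin, fell 1.36-fold, from 387 ± 41.6 (SD, n = 3) to 285 ± 31.6 (SD, n = 3), and both of its probes passed. Pde1a, of the same calcium-activated family, rose 1.32-fold, from 436 ± 49.6 (SD, n = 3) to 575 ± 20.4 (SD, n = 3; log2 0.41, SE 0.10, limma adjusted p = 0.0359). With the probes of a gene averaged, Pde1a was not called, and its other 2 kept probes missed the threshold (limma adjusted p = 0.197 and 0.0548 over all kept probes).

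Among 10 genes of A-kinase anchors and cAMP exchange factors 1 fell and 1 rose. Akap13 encodes an anchor of protein kinase A. It read 386, 555 and 380.1 on the wild type arrays and 169, 211 and 173 on the transgenic arrays, 2.36-fold lower (log2 -1.24, SE 0.16, limma adjusted p = 0.0145). With the brightest probe of each gene this was the largest fall among the 84 genes. With the kept probes averaged it was -0.70, smaller in size than that of Pde4b at -0.99. Averaging left the Pde4b value unchanged, because only its brightest probe was kept. A second kept probe of Akap13, near background at 81.0 and 72.1, changed by -0.17 on the log2 scale and missed the threshold (limma adjusted p = 0.261 over all kept probes). Rapgef3 encodes Epac1, an exchange factor that cAMP activates without protein kinase A. It rose 1.41-fold, from 154 ± 29.1 (SD, n = 3) to 215 ± 14.4 (SD, n = 3; limma adjusted p = 0.0461), and lost its call with the replicate number as a block.

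Downstream of the kinase, 3 of 9 lipolysis effector genes rose and none fell, with a median log2 difference of 0.36, beside 0.03 over all features. All 9 differences were positive, but that of Mgll was only 0.03 (SE 0.11). The Fabp4 probe read near background, at 62.4 ± 3.32 (SD, n = 3) in wild type and 67.5 ± 7.9 (SD, n = 3) in transgenic tissue, so its sign says little. Plin1, the perilipin gene, whose product guards the lipid droplet and is a main substrate of the kinase, read 1328, 1092 and 1602 on the wild type arrays and 1771, 2072 and 1932 on the transgenic arrays (log2 0.54, SE 0.14, limma adjusted p = 0.0414). The second, dimmer Plin1 probe read 107 ± 5.21 (SD, n = 3) and 125 ± 9.91 (SD, n = 3) and missed the threshold (log2 0.23; limma adjusted p = 0.13 over all kept probes). The rise was 1.51-fold for Aqp7, whose product lets glycerol out of the cell, and 1.48-fold for Cidec, a lipid droplet fusion gene. Lipe, the hormone-sensitive lipase gene, read 1791 ± 239 (SD, n = 3) and 2161 ± 134 (SD, n = 3), without overlap, and did not pass (log2 0.28, SE 0.11, limma adjusted p = 0.139). Pnpla2, the adipose triglyceride lipase gene, stood at the top value of the normalized scale, 25166.1, on 4 of 6 arrays, so that its probe could not show a rise there.

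Among 13 tested genes of the CREB family, its coactivators and cAMP-induced genes 1 fell, with a median log2 difference of -0.02. Crtc3, a CREB coactivator gene, read 225, 226 and 205 on the wild type arrays and 151, 179 and 164 on the transgenic arrays (log2 -0.41, SE 0.09, limma adjusted p = 0.028), and its second probe passed as well. The immediate cAMP targets Nr4a1 and Nr4a3 stayed below background.

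**Figure D2:**
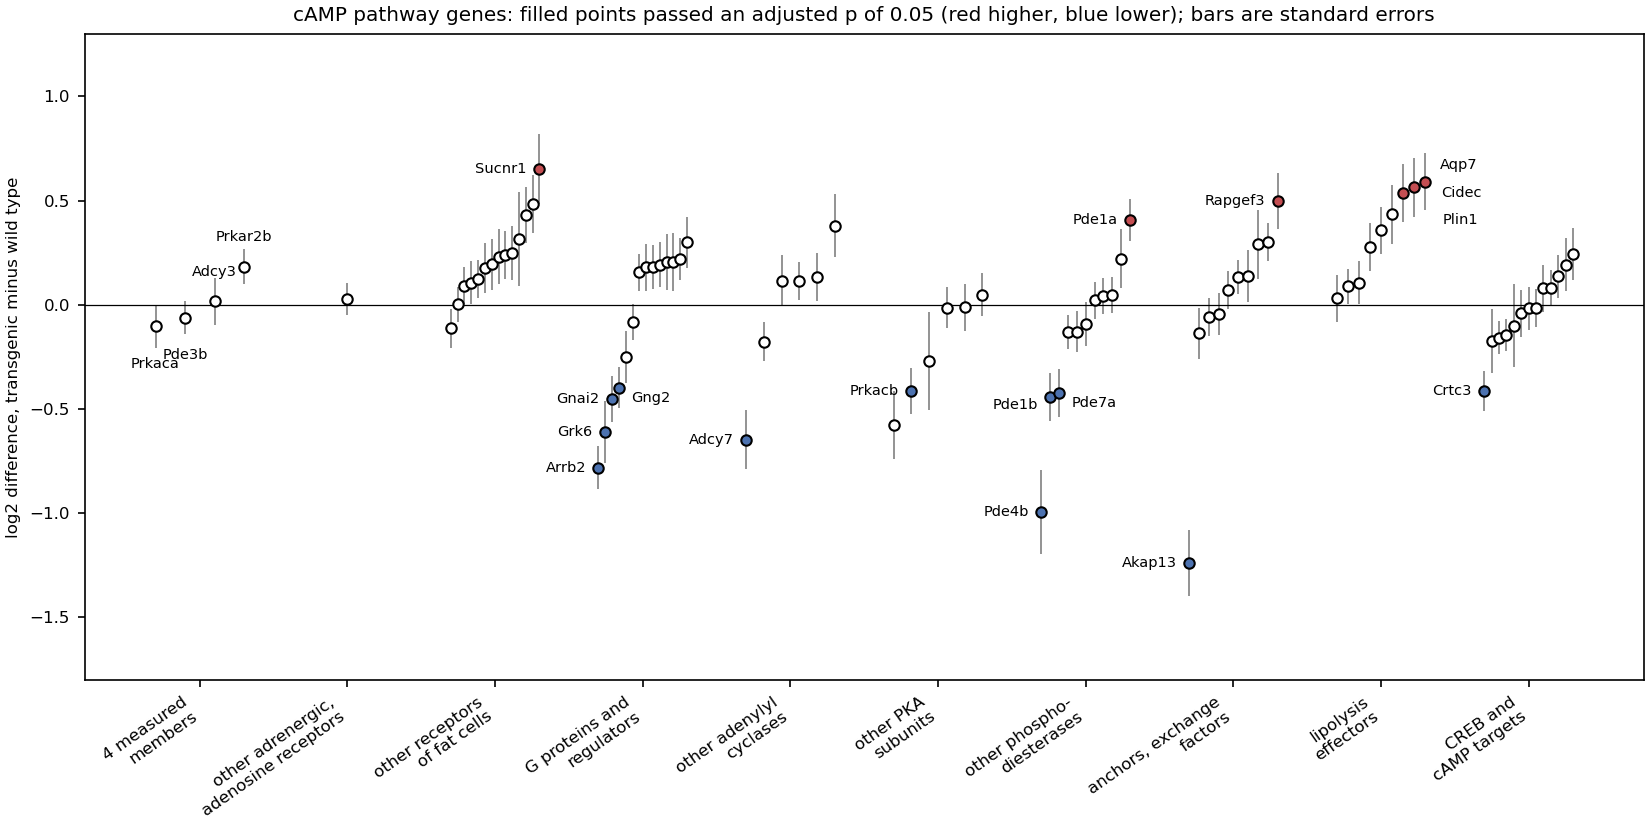
Log2 difference (transgenic minus wild type) of each tested gene in the 4 measured members and the 9 other lists, ordered within a list by size, with standard errors from limma; red and blue points passed an adjusted p of 0.05. The measured members lie between -0.10 and 0.18, and the called genes between -1.24 and 0.65.

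Markers of several cell types differed between the groups, where 5.11% of all features were called higher and 8.26% lower. All 8 tested T and NK cell markers and all 5 tested B and plasma cell markers fell. The summed intensity of the T and NK cell markers was 6247 to 12112 in wild type and 852 to 3519.7 in transgenic tissue, and that of the B and plasma cell markers was 3097 to 5340.4 and 483 to 1231. Cd8a and Jchain were below background. None of 6 tested macrophage markers was called. The differences of 4 were positive, and those of Lyz2 and Mpeg1 were negative (log2 -0.53 and -0.46). Of 9 adipocyte markers 5 rose and none fell. The sum of the 9 was 46770.4 to 49815 in wild type and 57704 to 61609.6 in transgenic tissue. The adipocyte list shares Plin1, Cidec and Lipe with the lipolysis effectors. Of 8 endothelial markers 1 rose, Cdh5, and none fell. All 8 had positive differences, with a median log2 difference of 0.36. Kdr, near background, differed by only 0.04 (SE 0.10) and Pecam1 by 0.09 (SE 0.13). The sum of the 8 was 4913 to 8710.1 against 9015 to 9187. Of 7 tested brown or beige adipocyte markers 2 fell, Ucp1 and Cox7a1, and none rose. The differences of Cidea and Ppargc1a were positive (log2 0.26 and 0.08). Those of Prdm16, Cox8b and Elovl3 were negative (log2 -0.01, -0.23 and -0.30) and were not called. The sum of the 7 was 39054 to 42500 in wild type and 31357 to 37593 in transgenic tissue. The sum of the 6 tested skeletal muscle markers was 335.5 to 15947 in wild type, highest on array 2, and 416 to 1235 in transgenic tissue. None of 8 fibroblast and progenitor markers and none of 2 tested epithelial markers was called. Of 3 tested Schwann cell and nerve markers, Pmp22 rose and Mbp fell.

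The part of these cell types in the falls and rises of the wider pathway was not tested. In whole tissue, fewer cells of a type and less RNA per cell cannot be told apart. The highest lymphocyte marker scores were on wild type array 2 and the lowest on transgenic array 1. The skeletal muscle marker score was also highest on wild type array 2. Arrb2, Grk6, Adcy7, Prkacb, Pde4b, Pde7a, Akap13 and Crtc3 were highest on wild type array 2 and lowest on transgenic array 1. The share of all features with this order was not counted. For Crtc3, wild type arrays 1 and 2 were nearly equal, at 225.4 and 225.6. The other falling genes had another order. Gnai2 was highest on wild type array 1 and lowest on transgenic array 3. Pde1b and Gng2 were highest on wild type array 2, but among the transgenic arrays they were highest on array 1. A link between these orders and the marker scores was not tested. Without both wild type array 2 and transgenic array 1, Akap13 and Arrb2 were called (limma adjusted p = 0.0181 and 0.04). The other 15 of the 17 genes were not.

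**Figure D3:**
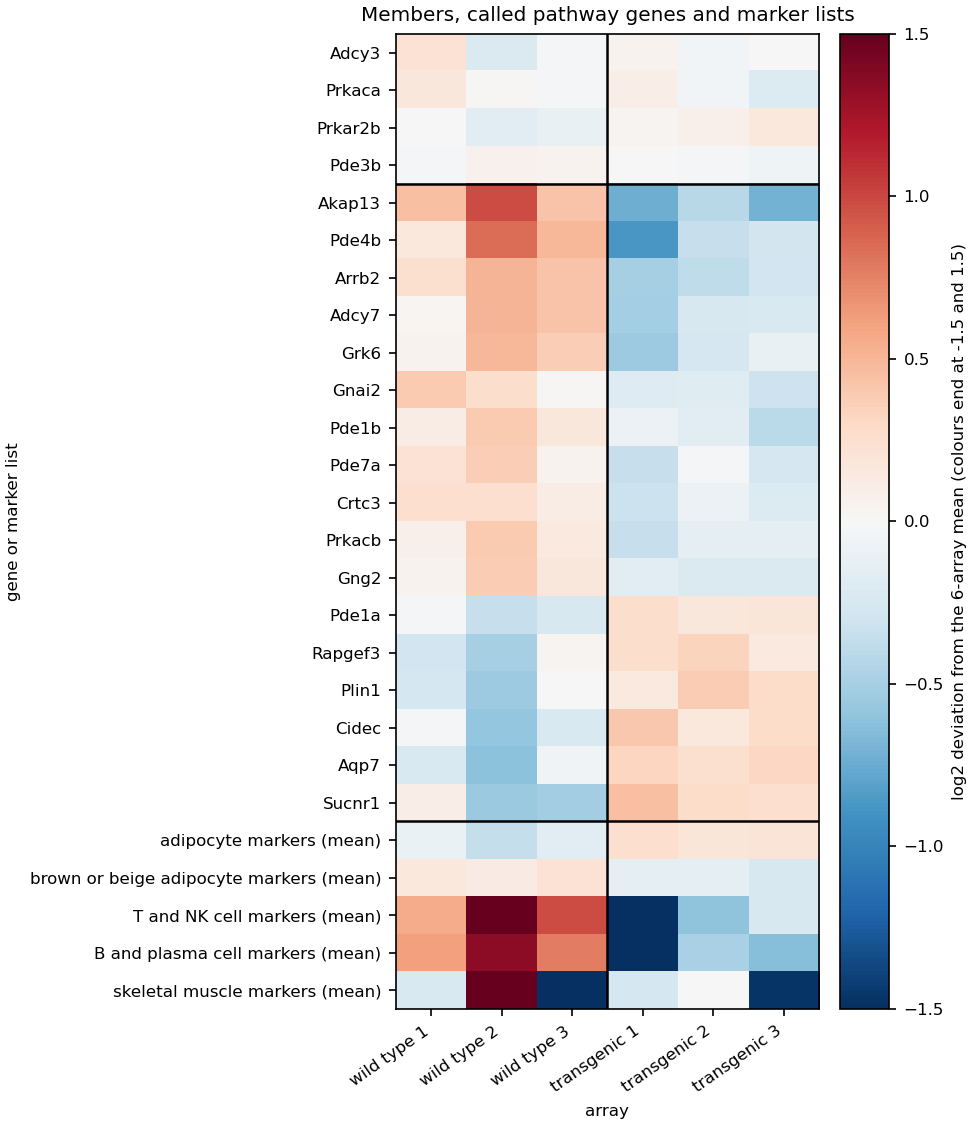
Log2 deviation of each gene from its own mean over the 6 arrays, for the 4 measured members (top), the 17 called pathway genes (middle) and the mean over each marker list (bottom); columns are arrays. The 4 members stay pale on every array, the middle rows mostly change colour between the groups, and wild type array 2 and transgenic array 1 carry the deepest T and NK cell colours.

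The genes whose log2 values ran most like those of each measured gene over the 6 arrays are given as a description, since with 6 arrays and 11469 named genes to choose from the highest correlations are selected to be high. For Prkar2b they were Gstm5, a glutathione transferase gene (Pearson r = 0.998), and Fbxo4, an F-box protein gene (0.995). For Prkaca they were Tmem234 (0.99) and Ccpg1 (0.987), for Adcy3 Cenpo (0.996) and Rab5if (0.991), and for Pde3b Diaph1 (0.985) and Foxo1 (0.983). None of these 8 genes was called. Gstm5 had the largest difference of them, from 574 ± 68.1 (SD, n = 3) to 741 ± 62.1 (SD, n = 3; log2 0.37, SE 0.11, limma adjusted p = 0.059).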

How the data were processed

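Per the labels' protocols, RNA was extracted from snap-frozen tissue and cRNA carrying biotin was put on the arrays. The deposited values are intensities on a linear scale. Sorted, the 6 arrays differ by 0.157 or less, as after quantile normalization, and the background was not subtracted. The software used is not given in the sources. The scanner output was left out because its 24 per-array columns carry chip positions only, matching no label.

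The background level was the mode of all log2 values, and the threshold was set above it by 1.645 times the spread found below the mode, which kept 22037 probes. The kept probe of highest mean stood for each gene. Features (11469 named genes and 3493 probes without a single gene) entered limma 3.58.1 (R 4.3.3) with no covariate. The fit was tested on simulated data with noise drawn independently for each feature and array. That test does not cover effects that features share on an array. The annotation, which can be old, names 1 gene for 34885 probes, more than 1 for 18, and no gene for 10378.

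The members and lists were chosen with earlier results of these data known. Named genes were Cisd1, the members, up to 4 called members of each list (otherwise the one of smallest p), Lipe, Pnpla2, Plin1, and for each member the 2 genes most correlated with it. Alternatives covered scale, centring, filter, probe choice, moderation, weighting of arrays, a block for the replicate number, the threshold and left-out arrays. The number of arrays limits the precision.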

Additional observations from a re-analysis of the deposited data

How the results depend on the processing

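No member was called under any of the 19 alternatives in which it was tested (Pde3b was not tested under the 2 stricter filters), and the median log2 difference of the members ran from -0.06 to 0.04 with 1 array left out. Subtracting the background level gave 84 features higher and 260 lower, and 0 and 2 pathway genes. Leaving out wild type array 2 and transgenic array 1 together gave 21 and 296 features, and 0 and 2 pathway genes. With all probes tested separately 1259 were higher, with array weights 1247 features and 10 pathway genes were higher, and at an adjusted p under 0.10 there were 1591 features higher and 1859 lower, with 11 pathway genes higher. With each array centred on its median 1117 features were higher and 1086 lower, against 765 and 1236 without. With 1 array left out, features higher ran from 0 to 997, features lower from 0 to 1303, pathway genes higher from 0 to 7 and pathway genes lower from 0 to 9; the zero counts came without transgenic array 2, where 3629 features had an unadjusted p under 0.05 in limma. Of the 17 called pathway genes, Arrb2 and Akap13 kept their calls in 5 of 6 single exclusions, Adcy7 and Pde4b in 3, Aqp7 and Grk6 in 2 and the other 11 in 1. The direction changed in 8 of 622 gene values, in Adcy3, Cenpo and Rab5if, none of them called. Changing the moderation, the replicate block or the adjusted p threshold leaves a log2 difference as it is. Those of the 622 values could therefore not change direction. Samples with the same replicate number deviated together with correlations of 0.41, 0.22 and -0.03, beside -0.35 to 0.23 for unlike numbers. These values do not settle whether the numbers pair the samples, and the main fit did not pair them. With the replicate block 919 features were higher and 1472 lower, with 9 and 11 pathway genes. For probes near background, Pde3b and Adra2c among them, signal limits what a difference can show.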
